A study of Mus musculus with 7 samples.

Results

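The 8 genes of arginine and nitric oxide metabolism described here were measured across 7 mouse tumours: Arg1, Arg2, Nos2, Slc7a2, Slc7a1, Ass1, Asl and Odc1. They were taken as a list of 8 symbols, drawn up with earlier results of these data known. All 8 were found among the 28233 genes of the deposited expression table. The tumours grew under the skin of C57BL/6 mice from cells of the mouse melanoma line B16mhgp100, also spelled B16mghp100 in the labels. In 4 of them, Cr1l 1 to Cr1l 4, the cells carried Cr1l over-expression (Cr1l encodes Crry, a membrane protein that restrains complement), and 3, Vec 5 to Vec 7, carried the vector. All 7 mice received the anti-PD1 antibody BE0146 at 200 µg per dose from 10 days after the cells were inoculated, 2 doses a week and 4 in all, and harvest followed 1 day after dose 4, so both groups share the antibody and no untreated tumour was analysed here. The sources used here do not say whether a group came from 1 clone, which promoter drives Cr1l, or the age of the mice. The values are TPM, a relative transcript abundance within each tumour that is scaled for transcript length; the read depth of each tumour is unknown. Cr1l itself stood at 76.37, 78.56, 77.91 and 83.57 TPM in Cr1l 1 to Cr1l 4, against 52.41, 46.29 and 54.94 TPM in Vec 5 to Vec 7, so every Cr1l tumour was above every Vec tumour (log2 fold change 0.62, adjusted p = 0.119 by limma). The authors' deposited DESeq2 table gave Cr1l 0.57 (adjusted p = 0.00636).

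Arginine is the shared substrate of competing enzymes. Arginase splits it into ornithine and urea, and ornithine decarboxylase turns ornithine into putrescine, the first polyamine, while ornithine can also be made into proline. Inducible nitric oxide synthase instead turns arginine into nitric oxide and citrulline, and the argininosuccinate enzymes rebuild arginine from citrulline. In mouse macrophages arginase 1 is a classical mark of activation by interleukin-4 and interleukin-13, and inducible nitric oxide synthase one of activation by interferon gamma and microbial products. Both occur in myeloid cells of tumours.

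A promoter window, from 250 bases before the transcription start to 50 bases after it, was held by the RefSeq table for Ass1, Slc7a1 and Odc1 (build GRCm38.p6, which differs from the authors' mm39). Those of Ass1, at chr2:31470020-31470319 on the plus strand, and Odc1, at chr12:17544623-17544922 on the plus strand, are shown because MYC, measured below through its gene, binds the E-box CACGTG. Capitals mark CACGTG, whose letters also hold the hypoxia response core ACGTG on both strands.
Ass1: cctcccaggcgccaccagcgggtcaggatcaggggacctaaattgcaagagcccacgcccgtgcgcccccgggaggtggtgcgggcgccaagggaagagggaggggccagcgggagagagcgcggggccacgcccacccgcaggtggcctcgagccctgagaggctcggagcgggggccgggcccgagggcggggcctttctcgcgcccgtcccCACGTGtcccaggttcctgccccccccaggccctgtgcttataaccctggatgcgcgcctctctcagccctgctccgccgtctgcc
Odc1: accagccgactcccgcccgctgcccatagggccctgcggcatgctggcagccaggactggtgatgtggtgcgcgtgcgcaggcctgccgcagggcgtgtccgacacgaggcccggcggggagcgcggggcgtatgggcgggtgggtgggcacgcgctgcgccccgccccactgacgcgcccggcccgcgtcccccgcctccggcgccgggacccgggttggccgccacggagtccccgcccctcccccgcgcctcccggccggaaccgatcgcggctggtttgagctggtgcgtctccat
The Ass1 window holds CACGTG once, starting 36 bases before the transcription start. CACGTG stands in 7.15% and ACGTG in 19.6% of the 32851 mouse promoter windows of this length in the table, both strands searched. The Odc1 window, 78.0% of whose bases are G or C, holds neither, nor the TATA box TATAAA, the AP-1 motif TGANTCA, or the NF-kB and STAT6 types (in 13.6%, 7.81%, 1.63% and 6.95% of all windows). The window at the upstream start of Slc7a1 holds the AP-1 motif TGACTCA once, and the window at its other start holds TATAAA once. A match describes letters and is not a bound site. Only these windows were searched, so motifs elsewhere in a gene, such as in its introns, would be missed.

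The tumours differed in their mixture of cells, and in bulk RNA fewer cells of a type and less RNA per cell cannot be told apart. All 15 macrophage and monocyte markers were detected in all 7 tumours, and 14 of 15 had a higher mean in Cr1l tumours. Their summed level was 613, 1019, 5912 and 5004 TPM in Cr1l 1 to Cr1l 4, against 1649, 877 and 524 TPM in Vec 5 to Vec 7, so that the groups overlapped. The 7 melanoma markers summed to 19764, 18367, 8873 and 10162 TPM in Cr1l 1 to Cr1l 4 and to 18523, 12899 and 20010 TPM in Vec 5 to Vec 7. The 8 neutrophil markers summed to 10.7 to 205 TPM in Cr1l tumours and 12.9 to 34.2 TPM in Vec tumours, and Ly6g was listed at 0 in 6 of the 7. Fibroblast markers summed to 699 to 5889 TPM in Cr1l tumours and 134 to 1132 TPM in Vec tumours, also highest in Cr1l 3 and Cr1l 4. Red cell markers summed to 106 to 389 TPM in Cr1l tumours and 416 to 41285 TPM in Vec tumours, highest in Vec 6 and Vec 7, and without overlap. Keratinocyte and skeletal muscle markers were highest in Vec 6 (840 and 1269 TPM), against at most 44.2 and 227 TPM in Cr1l tumours. Endothelial markers summed to 75 to 359 TPM in Cr1l tumours and 35.6 to 115 TPM in Vec tumours, T cell markers to 9.62 to 143 TPM in Cr1l tumours and 13.5 to 28.1 TPM in Vec tumours, and proliferation markers to 795 to 1437 TPM in Cr1l tumours and 1048 to 1383 TPM in Vec tumours. The part of this mixture in the results was not tested beyond the covariate values below. Hepatocytes are another source of Arg1, Ass1 and Asl. Their 4 markers summed to 2.94 to 30.8 TPM in Cr1l tumours and 0.59 to 13.3 TPM in Vec tumours, with the urea cycle genes Otc at no more than 0.07 TPM and Cps1 at no more than 0.53 TPM in any tumour.

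Arg1 was the gene of the 8 with the largest difference between the groups. It stood at 37.17, 75.31, 275.9 and 367.55 TPM in Cr1l 1 to Cr1l 4, against 16.38, 15.88 and 10.89 TPM in Vec 5 to Vec 7. Every Cr1l tumour lay above every Vec tumour, and Cr1l 3 and Cr1l 4 lay far above the other two of their group. The means were 189 ± 159 TPM in Cr1l tumours and 14.4 ± 3.04 TPM in Vec tumours (SD, n = 4 and n = 3), a ratio of means of 13.1. On the log2(TPM + 1) scale the fold change was 3.11 (SE 0.75, 95% interval 1.38 to 4.84), with an adjusted p of 0.179 over all genes by limma. The exact permutation test of the difference in means, two-sided, gave p = 0.0571, where 0.0286 is the smallest that 4 against 3 tumours allow. Without Cr1l 3 and Cr1l 4 together, a setting added after seeing the data, the fold change was 1.83 (SE 0.33, adjusted p = 0.14 by limma). In the authors' deposited table, made with DESeq2, the value for Arg1 was 3.68 (SE 0.68, adjusted p = 1.73e-05).

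Arg2, the mitochondrial arginase, was rare in every tumour. It stood at 0.3, 0.58, 1.7 and 2.31 TPM in Cr1l 1 to Cr1l 4 and at 0.35, 0.37 and 0.18 TPM in Vec 5 to Vec 7. The groups overlapped, since Cr1l 1 lay below Vec 5 and Vec 6. Its mean of 0.827 TPM over the tumours fell short of the filter of 1 TPM, so it was the 1 gene of the 8 that was not tested, and the exact permutation test gave p = 0.20. For Arg2 the authors' deposited table held 2.0 on the log2 scale and an adjusted p of 0.171. Arg1 exceeded Arg2 by 124 to 162 times in Cr1l tumours and by 42.9 to 60.5 times in Vec tumours.

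Nos2, the inducible nitric oxide synthase, shared the high tumours of Arg1 but not its separation of the groups. It stood at 8.86, 9.86, 36.99 and 44.13 TPM in Cr1l 1 to Cr1l 4, against 9.83, 1.94 and 1.6 TPM in Vec 5 to Vec 7. Vec 5 lay level with Cr1l 1 and Cr1l 2, so the groups overlapped. The log2 fold change was 2.25 (SE 0.72, 95% interval 0.59 to 3.91, adjusted p = 0.244 by limma; exact permutation p = 0.1143). It was 0.93 without Vec 6 and Vec 7, whose titles carry a number that Vec 5 lacks, and 1.25 without Cr1l 3 and Cr1l 4. The authors' deposited table gave Nos2 2.51 (SE 0.73, adjusted p = 0.0171).

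The balance of the arginase and nitric oxide transcripts was set out as the ratio of Arg1 to Nos2 within each tumour. The TPM ratio was 4.2, 7.64, 7.46 and 8.33 in Cr1l 1 to Cr1l 4, against 1.67, 8.19 and 6.81 in Vec 5 to Vec 7. Arg1 exceeded Nos2 in all 7 tumours, and the ratios of Vec 6 and Vec 7 lay within the range of the Cr1l tumours, with Vec 5 alone well below it. As log2((TPM + 1)/(TPM + 1)) the ratio averaged 2.67 ± 0.48 in Cr1l tumours and 1.80 ± 0.98 in Vec tumours (SD, n = 4 and n = 3), with overlapping groups; the difference of 0.87 was 0.31 without Vec 5.

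Arginine import showed opposite profiles for its 2 carriers. Slc7a2 encodes CAT-2, the cationic amino acid transporter that activated mouse macrophages induce. Its level was 0.82, 2.33, 12.43 and 9.5 TPM in Cr1l 1 to Cr1l 4, against 2.54, 1.22 and 0.56 TPM in Vec 5 to Vec 7. Cr1l 3 and Cr1l 4 were high and the other 5 tumours lay together, whichever group they came from. Its log2 fold change was 1.23 (SE 0.71, 95% interval -0.42 to 2.88, adjusted p = 0.419 by limma; exact permutation p = 0.2571), and it was 0.09 without Cr1l 3 and Cr1l 4. For Slc7a2 the authors' deposited table held 2.12 (SE 0.81, adjusted p = 0.0876). Slc7a1 encodes CAT-1, the carrier of most other cell types. It stood at 53.77, 46.44, 21.9 and 20.11 TPM in Cr1l 1 to Cr1l 4 and at 49.15, 28.85 and 47.03 TPM in Vec 5 to Vec 7. Cr1l 3 and Cr1l 4 were the lowest here, followed by Vec 6. That is a log2 fold change of -0.31 (SE 0.39, 95% interval -1.21 to 0.58, adjusted p = 0.699 by limma; exact permutation p = 0.5143), and its sign turned, to 0.29, without Cr1l 3 and Cr1l 4. Slc7a1 was the more abundant carrier in every tumour, with a TPM ratio of Slc7a2 to Slc7a1 of 0.568 and 0.472 in Cr1l 3 and Cr1l 4 and of 0.0119 to 0.0517 in the other 5.

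Citrulline recycling takes 2 enzymes that did not run in parallel. Ass1 encodes argininosuccinate synthase, which joins citrulline to aspartate. Its level was 16.83, 17.13, 45.05 and 28.63 TPM in Cr1l 1 to Cr1l 4, against 42.38, 15.95 and 16.42 TPM in Vec 5 to Vec 7. The high tumours, Cr1l 3 and Vec 5, came from both groups. The log2 fold change of 0.14 (SE 0.44, 95% interval -0.89 to 1.17, adjusted p = 0.89 by limma; exact permutation p = 0.6857) had no stable sign: it was 0.58 without Vec 5 and -0.14 without Cr1l 3. Asl encodes argininosuccinate lyase, which releases arginine and fumarate. It stood at 81.83, 80.43, 62.61 and 64.2 TPM in Cr1l 1 to Cr1l 4 and at 89.7, 104.12 and 120.64 TPM in Vec 5 to Vec 7. Every Cr1l tumour lay below every Vec tumour, and the spread within each group was narrow, the highest tumour exceeding the lowest by 1.31 times in Cr1l tumours and 1.34 times in Vec tumours. The means were 72.3 ± 10.3 and 105 ± 15.5 TPM in Cr1l and Vec tumours (SD, n = 4 and n = 3). The log2 fold change was -0.53 (SE 0.16, 95% interval -0.90 to -0.16), with an adjusted p of 0.234 by limma and an exact permutation p of 0.0286, the smallest possible. It was -0.32 without Vec 6 and Vec 7 and -0.36 without Cr1l 3 and Cr1l 4, and the authors' deposited table gave -0.61 (SE 0.21, adjusted p = 0.0571).

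Odc1, which encodes ornithine decarboxylase, the regulated first step of polyamine synthesis, was abundant throughout. It stood at 222.23, 221.54, 192.68 and 156.25 TPM in Cr1l 1 to Cr1l 4 and at 327.39, 198.88 and 195.13 TPM in Vec 5 to Vec 7. Vec 5 was the highest tumour and Cr1l 4 the lowest, and the remaining 5 lay between 192.68 and 222.23 TPM with the groups mixed. The log2 fold change was -0.25 (SE 0.22, 95% interval -0.76 to 0.26, adjusted p = 0.58 by limma; exact permutation p = 0.4857). It was -0.0056 without Vec 5 and -0.74 without Vec 6 and Vec 7. Odc1 was the most abundant of the 8 in Cr1l 1, Cr1l 2 and all Vec tumours, and Arg1 was so in Cr1l 3 and Cr1l 4. Arg1 stood at 0.167, 0.34, 1.43 and 2.35 times Odc1 in Cr1l 1 to Cr1l 4 and at 0.05, 0.0798 and 0.0558 times Odc1 in Vec 5 to Vec 7.

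**Figure D1:**
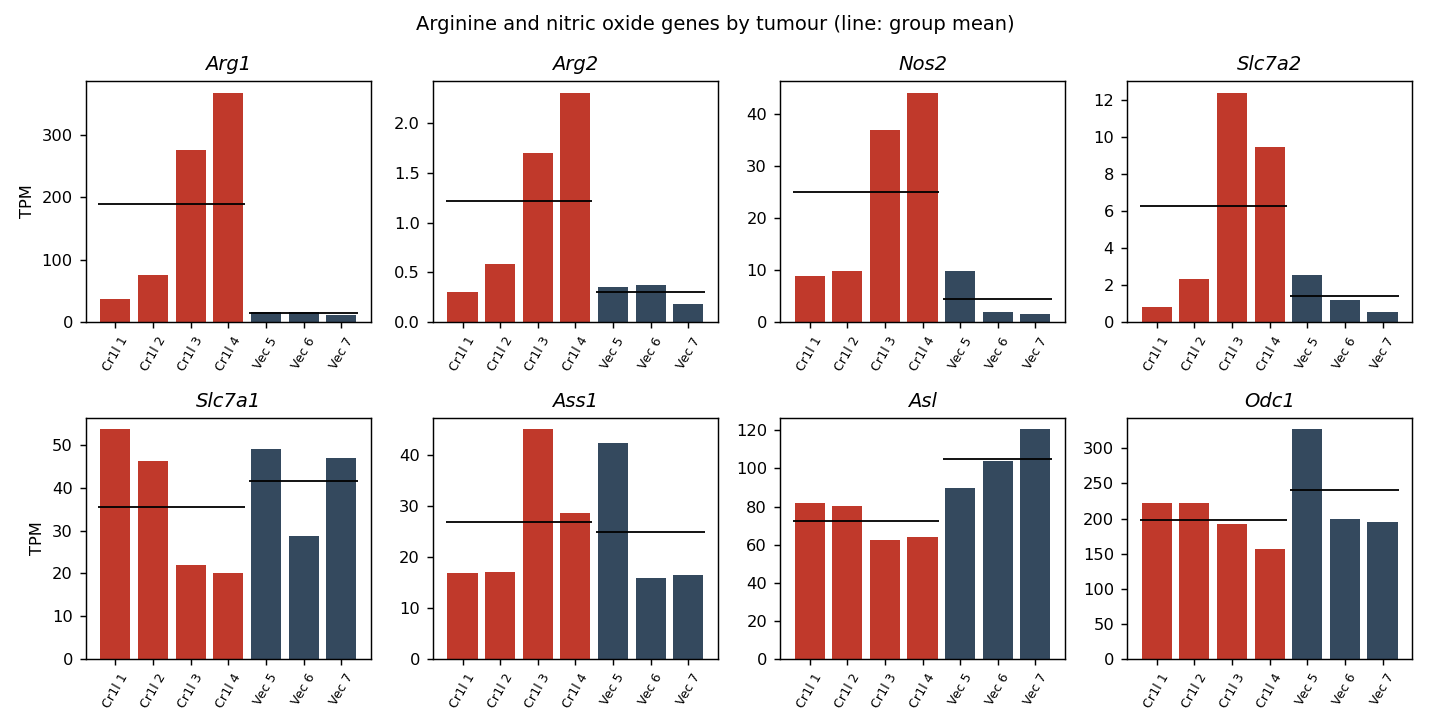
Bars give TPM of each of the 8 genes in each tumour, Cr1l tumours in red on the left and Vec tumours in dark blue on the right, with a line at the group mean; each panel has its own axis from 0. Arg1 separates the groups upward and Asl downward, while Arg2, Nos2 and Slc7a2 are high in Cr1l 3 and Cr1l 4 and overlap elsewhere.

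Among the 7 genes tested, 0 passed an adjusted p of 0.05 by limma in either direction, where 0% of the 14954 genes tested were called higher and 0.0134% lower (Per1, a clock gene, and Gm56655, a predicted gene, named after their values were seen). At an unadjusted p under 0.05, Arg1 and Nos2 were on the higher side and Asl on the lower, against 9.49% of all genes higher and 6.07% lower. Full separation of the groups was seen upward for 1 gene, Arg1, and downward for 1, Asl, against 9.29% and 6.67% of all genes. With median-of-ratios scaling between tumours the counts over all genes were 1174 higher and 1414 lower at an unadjusted p under 0.05, in place of 1419 and 908, and 1250 and 1493 without overlap, in place of 1389 and 997. The authors' deposited table called 2 of the 8 higher, Arg1 and Nos2, and 0 lower, where it called 4.74% of its 18297 genes with an adjusted p higher and 2.27% lower. The median log2 fold change of the 7 was 0.14, with 4 of 7 positive, beside a median of 0.05 over all genes tested with 8281 of 14954 positive.

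**Figure D2:**
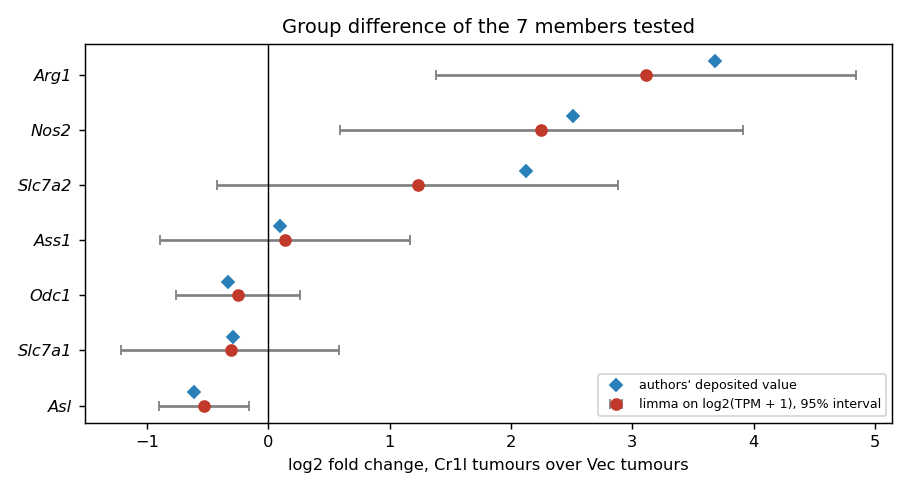
Points give the log2 fold change of Cr1l over Vec tumours by limma on log2(TPM + 1), with bars for the 95% interval, and diamonds give the authors' deposited DESeq2 value for the same gene. The intervals of Arg1 (1.38 to 4.84), Nos2 and Asl (-0.90 to -0.16) exclude 0 before adjustment; those of Slc7a2, Ass1, Odc1 and Slc7a1 include it, and the signs of Ass1 and Slc7a1 turn when tumours are left out.

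Set against the macrophage markers, Arg1 and Nos2 stood higher in Cr1l tumours, and Slc7a2 did not. On the log2(TPM + 1) scale Arg1 minus the mean of the 15 markers was 0.83, 1.28, 0.76 and 1.37 in Cr1l 1 to Cr1l 4, against -1.62, -0.65 and -0.38 in Vec 5 to Vec 7. The 4 Cr1l values lay within a narrow band, above all 3 Vec values. For Nos2 the same difference was -1.12, -1.54, -2.10 and -1.66 in Cr1l 1 to Cr1l 4, against -2.30, -3.17 and -2.58 in Vec 5 to Vec 7, again without overlap. Slc7a2 minus the marker mean was -3.56, -3.24, -3.60 and -3.77 in Cr1l 1 to Cr1l 4, against -3.92, -3.58 and -3.31 in Vec 5 to Vec 7, nearly the same offset in all 7. With the marker mean as a covariate in limma, the group term was 2.09 for Arg1 (SE 0.33, adjusted p = 0.06), 1.26 for Nos2 (SE 0.30, adjusted p = 0.132) and 0.22 for Slc7a2 (SE 0.26, adjusted p = 0.71). The marker mean was 7.35 and 7.16 in Cr1l 3 and Cr1l 4, beyond the 3.96 to 5.74 of the Vec tumours. For those Cr1l tumours the adjustment extends a fitted line past all Vec values. Slc7a1 was instead lowest in Cr1l 3, Cr1l 4 and Vec 6, the 3 tumours with the lowest melanoma markers, and its group term was 0.01 (SE 0.14, adjusted p = 0.968 by limma) with the melanoma marker mean as a covariate.

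**Figure D3:**
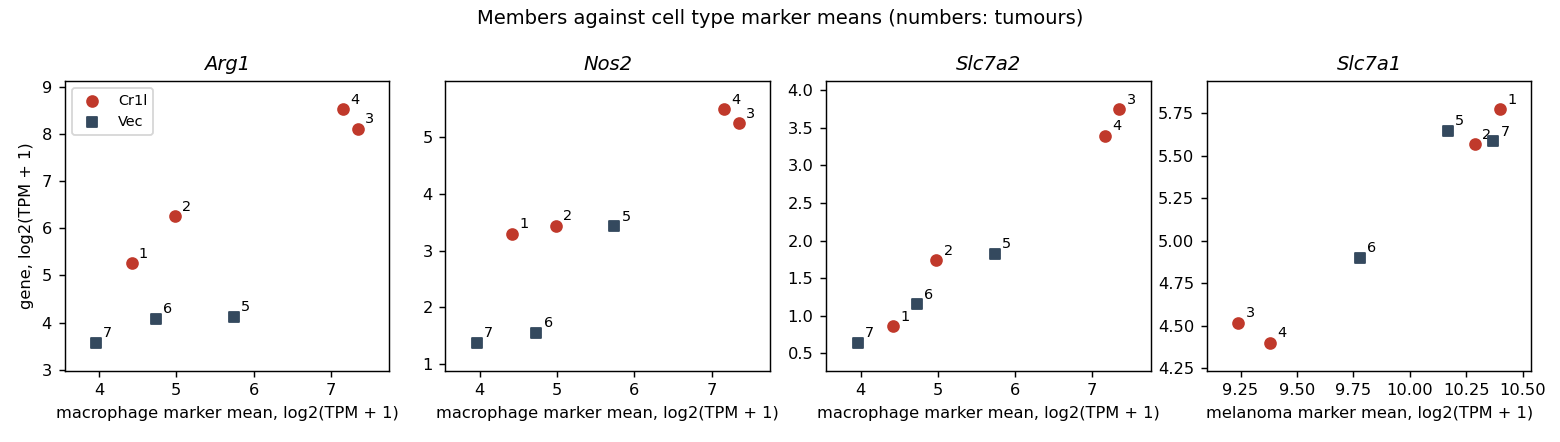
Each point is a tumour, with its number; the y axis gives the gene and the x axis the mean of 15 macrophage and monocyte markers (first 3 panels) or of 7 melanoma markers (last panel), all in log2(TPM + 1). Cr1l 1 and Cr1l 2 (red circles) share the macrophage marker range of the Vec tumours (dark squares). They lie above all Vec tumours for Arg1. For Nos2 they lie above Vec 6 and Vec 7 and about level with Vec 5. Cr1l 3 and Cr1l 4 have higher macrophage markers than any Vec tumour. For Slc7a2 both groups lie along one course. Slc7a1 is lowest in the tumours with the lowest melanoma markers.

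A wider list of 84 genes around the 8 was counted next, of which 72 were tested. By limma 0 of 72 passed an adjusted p of 0.05 in either direction. At an unadjusted p under 0.05, 15 were higher and 1 was lower, beside 9.49% and 6.07% of all genes, and full separation was seen for 10 upward and 2 downward, beside 9.29% and 6.67%. In all 49 of 72 were positive with a median log2 fold change of 0.32, beside 0.05 over all genes. Of 76 with an adjusted p in the authors' deposited table, 7 were called higher and 0 lower, beside 4.74% and 2.27% of all its genes.

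Liver-type urea cycle genes were rare. Otc, the ornithine transcarbamylase of liver, was listed at 0 in 6 of 7 tumours. Of the 8 arginine and urea cycle genes 3 were tested. They were the mitochondrial ornithine carrier Slc25a15 (log2 fold change 0.14) and the creatine synthesis genes Gatm (0.37) and Gamt (-0.30). By limma 0 of the 3 had an unadjusted p under 0.05, beside 9.49% of all genes higher and 6.07% lower.

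The route from ornithine to proline had values on both sides. Pycr1, whose enzyme makes the last step to proline, stood at 2.37, 4.94, 5.32 and 4.89 TPM in Cr1l tumours and at 1.07, 1.74 and 2.12 TPM in Vec tumours, without overlap (log2 fold change 1.00, SE 0.30, adjusted p = 0.234 by limma). The authors' deposited table called Pycr1 higher (adjusted p = 0.0435). Prodh, which starts the breakdown of proline, stood at 19.87, 18.27, 12.07 and 12.9 TPM in Cr1l tumours and at 22.4, 25.92 and 21.75 TPM in Vec tumours, also without overlap (-0.56, SE 0.21, adjusted p = 0.276). P4ha1, a subunit of the enzyme that hydroxylates proline in collagen, had a log2 fold change of 0.54 (adjusted p = 0.257 by limma), with groups that did not overlap. Oat, which links ornithine to proline, differed little in the mean, at 210 ± 39.3 TPM in Cr1l tumours and 222 ± 40.7 TPM in Vec tumours (SD, n = 4 and n = 3).

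Of 9 tested genes that serve nitric oxide synthesis, 6 had positive and 3 negative values. At an unadjusted p under 0.05 by limma 2 were higher, Pts and Ddah1, and 0 were lower. The shares over all genes tested were 9.49% higher and 6.07% lower, and a count among 9 genes is too small to set apart from them. Pts, an enzyme of the synthesis of tetrahydrobiopterin, the cofactor of nitric oxide synthases, stood at 29.78, 30.22, 34.64 and 36.91 TPM in Cr1l tumours and at 21.43, 21.07 and 22.7 TPM in Vec tumours. The groups did not overlap, and the log2 fold change was 0.57 (SE 0.13, adjusted p = 0.176 by limma). Gch1, the first enzyme of that synthesis, had 0.23 (adjusted p = 0.77). Ddah1, which degrades methylarginines that inhibit nitric oxide synthases, had 0.54 without overlap (adjusted p = 0.26), and Prmt1, which methylates arginine in proteins, had -0.45 (adjusted p = 0.348). The largest fitted values of the group overlapped between the tumours, at 0.96 for Ddah2, a relative of Ddah1 (adjusted p = 0.432 by limma), and 0.79 for Gchfr, which encodes a regulator of the Gch1 enzyme (adjusted p = 0.372). The endothelial synthase Nos3 stood at 0.84 to 7.16 TPM over the 7 tumours with a log2 fold change of 0.16, and the neuronal Nos1 at 0.43 to 1.14 TPM in Cr1l tumours and 0.23 to 0.51 TPM in Vec tumours, below the filter.

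Polyamine genes lay on either side of 0, with 7 positive and 7 negative of 14 tested. At an unadjusted p under 0.05 by limma 1 of the 14 was higher and 0 were lower. That did not exceed the shares over all genes, 9.49% higher and 6.07% lower. Smox, the spermine oxidase, was the 1 with an unadjusted p under 0.05, at 29.54, 32.61, 47.16 and 54.23 TPM in Cr1l tumours and 26.67, 23.66 and 22.64 TPM in Vec tumours (log2 fold change 0.69, adjusted p = 0.251 by limma). The spermidine synthase Srm had -0.12, the polyamine-acetylating Sat1 0.46, and Eif5a, whose protein carries the spermidine-derived residue hypusine, -0.24, all with overlapping groups. Among transporters Slc7a7, a light chain that exports cationic amino acids, had 1.09 with overlap (adjusted p = 0.264), Slc7a6 had -0.22 without overlap (adjusted p = 0.505), and their shared heavy chain Slc3a2 had -0.24.

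Of the signals and regulators, 16 of 21 tested had positive values. Il4 was listed at 0 in all 3 Vec tumours and stood at 0.21, 0, 1.26 and 1.17 TPM in Cr1l 1 to Cr1l 4, and Il13 stood at 0.15, 0, 0.66 and 0.39 TPM in Cr1l tumours and at 0, 0 and 0.07 TPM in Vec tumours; both were below the filter. Ifng, the interferon that induces Nos2 in mouse macrophages, stood at 1.41, 0.81, 6.48 and 2.4 TPM in Cr1l tumours and at 0.43, 1.19 and 0.07 TPM in Vec tumours (log2 fold change 1.12, adjusted p = 0.343 by limma). Stat6, which carries the signal of interleukin-4, had 0.34 (adjusted p = 0.292). Myc, a known activator of Odc1, stood at 132.28, 126.6, 79.64 and 88.07 TPM in Cr1l tumours and at 49.18, 46.68 and 56.38 TPM in Vec tumours, with a log2 difference of 1.03 and an adjusted p of 0.127 by limma, while Odc1 itself had -0.25. The authors' deposited table gave Myc 1.00 with an adjusted p of 0.00219.

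The genes known to go with Arg1 in alternatively activated mouse macrophages were positive in 7 of 7, with a median log2 fold change of 1.89. Of the macrophage and monocyte markers 14 of 15 also had a higher mean in Cr1l tumours. The count of positive genes therefore does not set this list apart from macrophage genes in general. Retnla stood at 35.61, 117.17, 3971.9 and 1416.68 TPM in Cr1l tumours and at 21.68, 30 and 12.49 TPM in Vec tumours (log2 fold change 4.22, adjusted p = 0.27 by limma). Mgl2, a lectin of these cells, stood at 7.44, 15.62, 194.12 and 70.74 TPM in Cr1l tumours and at 4.86, 2.08 and 1.39 TPM in Vec tumours (3.42, SE 1.01, adjusted p = 0.23). Both had groups that did not overlap, with Cr1l 3 highest, where 9.29% of all genes lay apart upward. Mrc1, the mannose receptor, overlapped between the groups, at 16.06, 38.79, 218.25 and 152.52 TPM in Cr1l tumours and 27.37, 7.28 and 5.68 TPM in Vec tumours (2.57, adjusted p = 0.27), as did Chil3 (1.12, adjusted p = 0.288). The other genes of the list overlapped too: Cd163 (1.51, adjusted p = 0.443 by limma), Clec10a (1.89, adjusted p = 0.422) and Msr1 (1.33, adjusted p = 0.345). In the authors' deposited table Retnla, Mgl2 and Mrc1 were called higher, where 4.74% of its genes were.

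The 8 genes listed as going with Nos2 in macrophages activated by interferon gamma or microbial products had a median log2 fold change of 1.19. They are a mixed list, so the median is not a measure of interferon activity. Of the 8, 6 were positive, and Cxcl10 and Il6 were negative. Il6 had -0.27 with overlapping groups and was highest in Vec 5, at 18.15 TPM. Acod1, the enzyme that makes itaconate, stood at 4.24, 4.07, 19.89 and 9.82 TPM in Cr1l tumours and at 2.94, 1.66 and 0.63 TPM in Vec tumours, without overlap (log2 fold change 1.77, SE 0.55, adjusted p = 0.238 by limma). Il12b also did not overlap, at 0.27 to 4.62 TPM in Cr1l tumours and 0.04 to 0.20 TPM in Vec tumours, the latter near the floor. Its log2 fold change was 1.13 (SE 0.55, adjusted p = 0.354 by limma). Both were called higher in the authors' deposited table (adjusted p = 0.0102 for Acod1 and 0.00768 for Il12b). Over all genes, 9.29% lay apart upward and that table called 4.74% higher. Il1b (2.25, adjusted p = 0.31) and Ptgs2 (1.76, adjusted p = 0.288) overlapped through Vec 5. The interferon-induced chemokine Cxcl9 had 0.52, and Cxcl10 had -0.59, with 152.68, 132.01, 249.33 and 92.37 TPM in Cr1l tumours and 185.08, 254.94 and 229.54 TPM in Vec tumours.

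**Figure D4:**
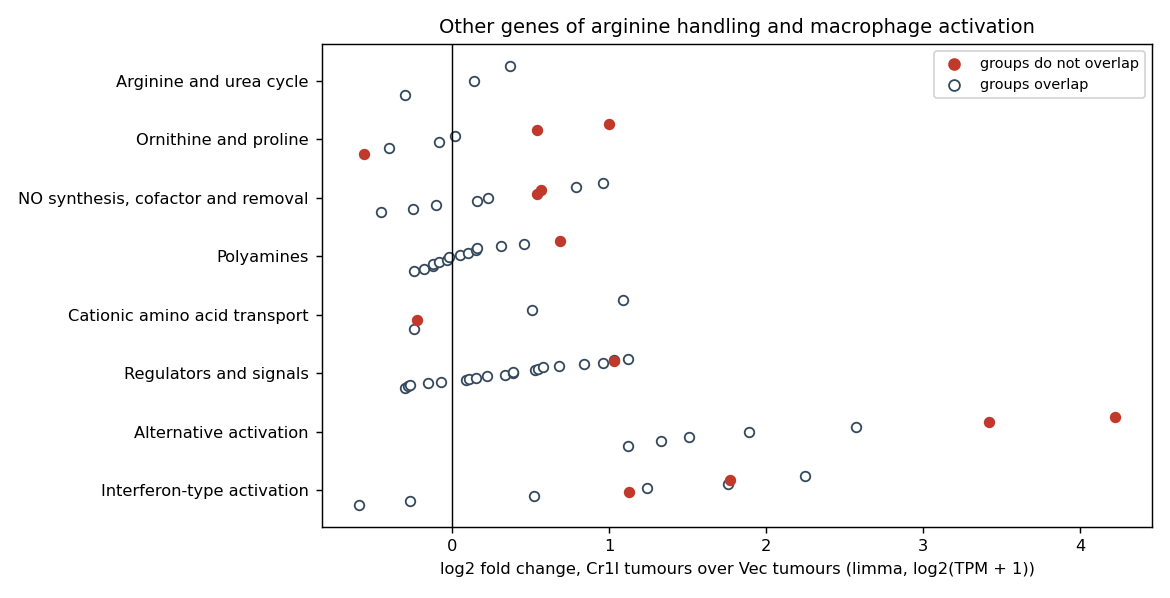
Each point is a tested gene of the wider list, placed by its log2 fold change of Cr1l over Vec tumours (limma on log2(TPM + 1)) and by its group; filled points are genes whose groups do not overlap. The alternative activation genes lie between 1.12 and 4.22, and polyamine genes between -0.24 and 0.69.

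Among 12931 named genes tested, those whose values over the 7 tumours lay closest to Arg1 by Pearson's r on the log2(TPM + 1) scale were Acrbp (0.994), Nab2 (0.993), Cysltr1 (0.99), Tec (0.99) and Fcho2 (0.99). Over the 5 tumours other than Cr1l 3 and Cr1l 4 their r with Arg1 was 0.964 to 0.997. Cysltr1, a leukotriene receptor, stood at 1.15, 2.14, 11.56 and 13.38 TPM in Cr1l tumours and at 0.41, 0.3 and 0.17 TPM in Vec tumours. Closest to Nos2 were Abca1 (0.995), Il33 (0.995), Ptprj (0.992), Il1rl1 (0.991) and Ednrb (0.989), with r of 0.984 to 0.996 over the 5 tumours other than Cr1l 4 and Vec 7. Il33, a cytokine of barrier and stromal cells, stood at 17.9, 27.04, 105.79 and 156.11 TPM in Cr1l tumours and at 30.55, 3.26 and 2.46 TPM in Vec tumours. Il1rl1, its receptor, stood at 3.13, 3.94, 12.16 and 14.25 TPM in Cr1l tumours and at 5.21, 0.48 and 0.59 TPM in Vec tumours. In both genes Vec 5 lay above Cr1l 1 and Cr1l 2, while for Nos2 it lay between them. These genes were picked for their likeness out of many, and all points share the same 7 tumours. A high r within 5 of those tumours is therefore no separate check of the likeness. For Nos2 the 5 still held Cr1l 3, where Nos2 was high.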

How the data were processed

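Bulk poly(A) RNA was sequenced from 4 Cr1l and 3 Vec tumours, with libraries that do not keep strand per the labels' protocols. The authors used RSEM, DESeq2 and build mm39, per the submitters' processing notes. The deposited table holds log2(TPM + 1) values made by the authors; TPM sums to between 993520 and 996031 per tumour. The authors' deposited DESeq2 table gives a mean normalized count (a signal), a log2 fold change with standard error, a test statistic (a score), and p-values, raw and adjusted; its direction was read from the positive value of Cr1l and an r of 0.879 with the limma fold changes over 14279 genes. The sources used here give neither versions, aligner nor depth.

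The 14954 genes whose mean reached 1 TPM were fitted with limma 3.58.1 in R 4.3.3 on log2(TPM + 1), with group as the term, a variance trend and Benjamini-Hochberg adjustment over all genes; this scale understates changes of low genes. The fit was checked on simulated data with the same spread for all genes and both groups, so groups of unequal spread were not covered. Exact permutation tests used the 35 divisions of 7 tumours. Gene identifiers were named from GRCm38 tables (27182 of 28369 matched). The 8 genes and all lists were chosen with earlier results of these data known. Named by rule are the 8, up to 3 genes per group of the wider list by p, 13 fixed ones, and 5 nearest to Arg1 and Nos2 each. Cps1, Ddah2, Gchfr, Cd163, Clec10a, Msr1, Il6, Il12b, Cxcl9, Cxcl10, Per1 and Gm56655 were named after their values were seen. Alternatives were 2 filters, a pseudocount of 0.1, scaling, weights, no trend, tumours left out and marker covariates. The antigen receptor table was not used. Figures were drawn with matplotlib 3.10.9.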

Additional observations from a re-analysis of the deposited data

How the results depend on the processing

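Numbers of genes past an adjusted p of 0.05 by limma were small and unsteady. Against 0 higher and 2 lower, there were 4 and 2 with a pseudocount of 0.1, 0 and 0 with no filter, 0 and 1 at a mean of at least 5 TPM, 4 and 6 with median-of-ratios scaling, 6 and 7 without the trend, 6 and 8 with arrayWeights, 1 and 2 without Vec 6 and Vec 7, 1 and 4 with the macrophage covariate, 18 and 23 with the melanoma covariate, and 3 and 6 without Cr1l 3 and Cr1l 4. Leaving out 1 tumour gave 0 to 2 higher and 0 to 6 lower. Of the 8 genes, 0 were called in 16 of 17 alternatives and 1, Arg1, with the melanoma covariate (2.50, adjusted p = 0.0415); its adjusted p ran from 0.0415 to 0.769. Of the wider list 1 gene, Myc, was called with either covariate. Of the 8 genes, those without overlap numbered 1 to 3 upward and 1 downward with 1 tumour left out, and 2 downward without Vec 6 and Vec 7; over all genes, 2733 of 15023 then lay apart upward without Vec 5 and 3885 of 14988 downward without Vec 6 and Vec 7. The log2 fold change of Slc7a1 turned to 0.11 with the macrophage covariate, 0.01 with the melanoma covariate and 0.29 without Cr1l 3 and Cr1l 4. That of Ass1 turned to -0.0081 with arrayWeights, -0.75 without Vec 6 and Vec 7, -0.42 and -0.08 with the macrophage and melanoma covariates and -0.38 without Cr1l 3 and Cr1l 4, and ranged from -0.14 to 0.58 with 1 tumour left out. The difference in the log2 ratio of Arg1 to Nos2 was 1.98 without Vec 6 and Vec 7. Signs of Arg1, Nos2, Slc7a2, Asl and Odc1 held in all alternatives run. The cause of these shifts was not tested. Where Vec 5 stands alone, the fit takes its spread to equal that of the Cr1l group. Tumours are numbered 1 to 7 across the groups, so no paired analysis was possible because no number is shared. The unknown depth limits the rare genes most.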
